A study of Mus musculus with 24 samples.

Results

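Lilrb4a and Lilr4b are a pair of neighbouring mouse genes on chromosome 10 that encode the immunoglobulin-like receptors gp49B and gp49A. They were taken as the genes whose symbol stood alone on a probe set in the array's probe annotation, and they made up 2 of the 19938 genes measured. Each gene had 1 such probe set (10363082 for Lilrb4a, Entrez 14728, and 10363070 for Lilr4b, Entrez 14727), so the rule that the brightest probe set stands for a gene left nothing to choose. The pair was selected on its measured intensities over the 8 groups, with these data in view, so those levels and their tests are a description of a chosen pattern and not independent evidence for it. The genes are close paralogs and their probe sets may share signal, so agreement between them does not count as 2 separate observations.

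Lilrb4a carries immunoreceptor tyrosine-based inhibitory motifs (ITIMs) in its cytoplasmic tail, which on phosphorylation recruit phosphatases such as SHP-1 and dampen activating receptors. Lilr4b closely resembles it outside the cell but has a short tail without these motifs. The receptors are best known from mast cells and macrophages, and gp49B has also been found on NK cells and on activated T cells, where it serves as one of several inhibitory receptors.

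Transcript levels were measured on 24 Affymetrix gene arrays in naive CD4 T cells of the 129SvEv strain. The 8 groups held 3 arrays each and crossed genotype with culture: wild-type (WT) cells, or cells with a combined knockout of Batf and Batf3 (DKO, labelled Batf1/3DKO), were unstimulated (day 0), cultured 2 days under TH2 conditions (day 2), or cultured 4 days at an anti-CD3e concentration of either 2.2 or 10 ng/ml (day 4). Anti-CD3e is an antibody that triggers the T cell receptor. All stimulated cells also received anti-CD28 cross-linked by plate-bound antibody, and for day 2 no anti-CD3e concentration is stated. Batf and Batf3 are leucine zipper transcription factors that occupy, jointly with Irf4, composite DNA sites, called AICEs, in which an AP-1 site lies beside an IRF site. The series title asks how the strength of T cell receptor stimulation is read out in graded fashion through Batf and Irf4. Nothing in the labels states that replicates came from separate animals or cultures, so p-values reflect sample-to-sample spread that may be technical only. The knockout is in every cell of the DKO groups, and the labels name no deletion shared with WT.

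Levels are deposited RMA intensities, given as single arrays or as mean ± SD over 3 arrays. Within a group the arrays correlated at 0.983 to 0.992 over all genes, and the number of arrays is what limits the precision. The 9 pan-T-cell markers examined summed to 11224 to 11948 on the WT 10 ng/ml arrays, and every one of them lay above an intensity of 32.2, the median over genes, which served as a guide to background. A level at or below that guide may be background, and a fold change measured from it understates the true change. In these bulk samples fewer cells with a transcript and less transcript per cell cannot be told apart. Differences come from limma with Benjamini-Hochberg adjustment over 19938 genes, and an adjusted p under 0.05 is referred to as a call.

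The 250 bases before the start of Lilr4b are shown because the pair moved together under loss of Batf factors and the window can be read for the AP-1 and IRF letters that make up an AICE. The window is chr10:51480362-51480611 on the plus strand of GRCm38.p6, from RefSeq, written 5′ to 3′, and capitals mark the IRF core GAAA or its reverse TTTC.
Lilr4b: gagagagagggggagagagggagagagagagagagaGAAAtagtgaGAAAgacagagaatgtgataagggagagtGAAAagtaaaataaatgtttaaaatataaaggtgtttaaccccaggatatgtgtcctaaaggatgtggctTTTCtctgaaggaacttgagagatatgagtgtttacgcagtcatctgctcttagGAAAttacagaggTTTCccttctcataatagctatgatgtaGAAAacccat
The core was found 7 times, 5 times on the plus strand and 2 times on the minus strand, between 214 and 10 bases before the start. These 4 letters are common, and 86.4% of the 32851 mouse promoter windows of the same length held them. The AP-1 letters TGANTCA, searched on both strands, were found 0 times in this window and in 6.75% of all windows. An AICE was searched in its usual spacings, TTTCNNNNTGANTCA and the core GAAA directly followed by TGANTCA, which contain the AP-1 and IRF letters as parts. Each was found 0 times, and 0.0974% and 0.1% of windows held them. Paired cores (GAAANNGAAA) were also found 0 times, against 2.98% of windows, and the ETS core GGAA 3 times, against 93.4%. A match is a description of letters, and no match says only that the letters are not in this window.

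Both receptors were near background in unstimulated WT cells and rose from each group to the next. Lilrb4a read 16.4, 14.7 and 17.5 on the WT day 0 arrays, 35.3, 38.6 and 24.8 at day 2, 53.0, 50.7 and 115 at day 4 with 2.2 ng/ml, and 1183, 1219 and 1975 with 10 ng/ml. Lilr4b read 10.6, 9.67 and 12.4, then 58.0, 34.5 and 26.4, then 86.2, 86.1 and 117, and finally 1840, 1646 and 2460 in the same groups. For each gene the 4 WT groups stood in this order with no overlap between neighbours, though the share of all genes ordered this way was not counted. At day 2 the arrays of both genes lay on either side of the background guide.

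**Figure D1:**
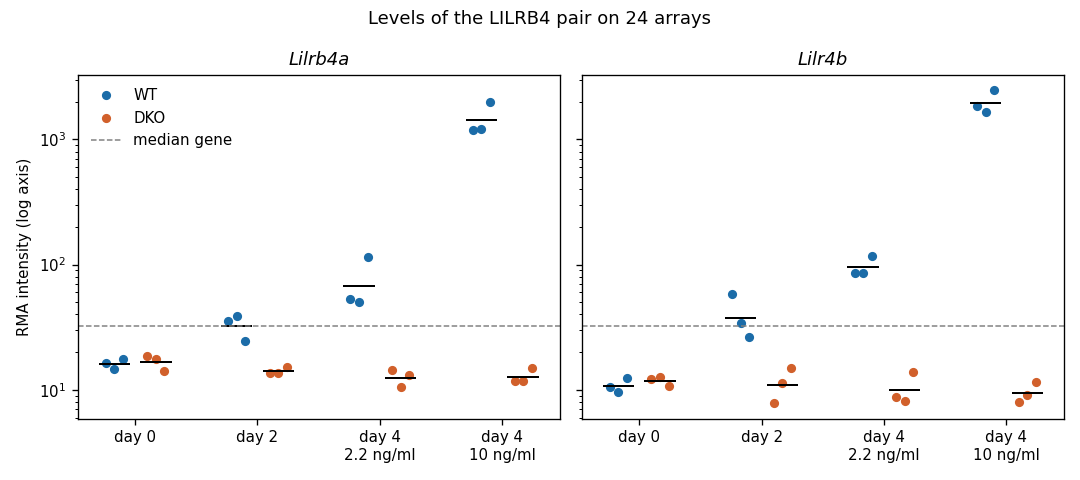
RMA intensity (log axis) of Lilrb4a (left) and Lilr4b (right) on each of the 24 arrays by day and anti-CD3e dose; points are arrays of WT (blue) or DKO (orange) cells, bars are geometric means of 3 arrays, and the dashed line is the median over genes, 32.2. WT points climb from day 0 to the 10 ng/ml group, where they lie between 1183 and 1975 for Lilrb4a and 1646 and 2460 for Lilr4b, while the DKO points of both genes stay at or below 18.7.

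In DKO cells neither gene left the background range. Lilrb4a read 18.7, 17.8 and 14.2 at day 0, 13.7, 13.7 and 15.3 at day 2, 14.3, 10.6 and 13.0 with 2.2 ng/ml, and 11.8, 11.8 and 15.0 with 10 ng/ml. Lilr4b read 12.2, 12.8 and 10.7, then 7.87, 11.3 and 14.9, then 8.82, 8.13 and 13.8, and 7.94, 9.15 and 11.5. The 12 DKO arrays thus spanned 10.6 to 18.7 for Lilrb4a and 7.87 to 14.9 for Lilr4b, and the DKO groups of each gene overlapped one another. They overlapped the WT day 0 group as well, except Lilrb4a in DKO at 2.2 ng/ml, whose highest array (14.3) lay just below the lowest WT day 0 array (14.7). All 9 stimulated WT arrays, from 24.8 (Lilrb4a) and 26.4 (Lilr4b) upwards, lay above all 15 other arrays. The share of all genes with such a separation was not counted, so how unusual it is cannot be said.

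As group means, Lilrb4a rose in WT from 16.2 ± 1.43 at day 0 to 32.9 ± 7.19 at day 2, 73.01 ± 36.7 under the low dose and 1459 ± 447 with 10 ng/ml. Lilr4b went from 10.9 ± 1.40 to 39.6 ± 16.4, 96.4 ± 17.8 and 1982 ± 425. On day 2 the fold over day 0 was 2.00 (95% confidence interval 1.42 to 2.82, limma adjusted p = 0.00156) for Lilrb4a and 3.47 (2.42 to 4.97, 2.55e-06) for Lilr4b. Rises were common in this comparison, with 19.7% of all genes called higher. This first step was small next to the later rise at 10 ng/ml, though not next to the step to 2.2 ng/ml.

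At day 4 the low dose gave 4.20-fold (2.98 to 5.92) for Lilrb4a and 8.81-fold (6.14 to 12.6) for Lilr4b over day 0, both called, as were 16.1% of genes in that direction. The high dose gave 87.9-fold (62.3 to 124, limma adjusted p = 2.41e-16) and 180-fold (126 to 259, 3.58e-17), against 18.4% of genes called higher and 18% called lower. By size these were the 7th (Lilrb4a) and 3rd (Lilr4b) rises among all genes tested. Day 0 levels were below the background guide, so these folds depend on a floor that the array sets.

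Most of the rise at the high dose fell between day 2 and day 4. From day 2 to day 4 at 10 ng/ml Lilrb4a rose 43.9-fold (31.1 to 61.9) and Lilr4b 52.04-fold (36.3 to 74.7), where 10.3% of genes were called higher. At 2.2 ng/ml the step from day 2 was 2.09-fold (1.49 to 2.95, limma adjusted p = 0.00408) for Lilrb4a and 2.54-fold (1.77 to 3.65, 0.000841) for Lilr4b, where 4.74% of genes were called higher. The Lilrb4a call for this step was lost when the compared groups were fitted alone (limma adjusted p = 0.0519; over all alternatives 0.00241 to 0.0519). The day 2 dose is not given, so time and dose cannot be told apart in these steps.

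The dose comparison at day 4 held time constant. At 10 ng/ml in place of 2.2 ng/ml of anti-CD3e Lilrb4a was higher 20.9-fold (14.9 to 29.5; log2 4.39 ± 0.24 SE, limma adjusted p = 3.89e-12) and Lilr4b 20.5-fold (14.3 to 29.4; 4.36 ± 0.25, 9.86e-12). Of all genes 7.64% were called higher and 7.52% lower in this comparison, and the pair held places 8 and 9 by size among the rises. All 3 high-dose arrays lay above all 3 low-dose arrays for both genes, as they did for 11.7% of genes. The lowest high-dose array of Lilrb4a, 1183, stood far above the highest low-dose array, 115.

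One low-dose array stood apart. WT replicate 3 at 2.2 ng/ml read 115 for Lilrb4a against 53.0 and 50.7 on the other low-dose arrays, and it also held the most Irf4, 588 against 338 and 267. Batf was highest there too, 1652 against 1424 and 1451, while Batf3 was lowest, 23.5 against 33.7 and 29.7. For Lilr4b the 117 on this array lay closer to the others, 86.2 and 86.1. Without this array the dose difference was 27.3-fold for Lilrb4a and 22.7-fold for Lilr4b. Leaving out any of the 6 arrays in turn gave 17.8-fold to 27.3-fold for Lilrb4a and 18.3-fold to 22.7-fold for Lilr4b. At 10 ng/ml WT replicate 3 was again the highest for the pair, 1975 (Lilrb4a) and 2460 (Lilr4b). There Irf4 (1315) and Batf (1593) lay between their values on the other high-dose arrays, and Batf3 was lowest (110). Whether these values are linked was not tested.

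Without Batf and Batf3 the same steps gave no call for either gene. In DKO cells the dose difference was 0.02 on the log2 scale for Lilrb4a (95% confidence interval -0.47 to 0.52) and -0.08 for Lilr4b (-0.60 to 0.44), while 8.15% of genes were called. Against day 0 the 10 ng/ml group differed by -0.39 (-0.89 to 0.10) for Lilrb4a and -0.33 (-0.85 to 0.19) for Lilr4b, in a comparison that called 30.7% of genes. Day 2 against day 0 gave -0.24 (-0.74 to 0.25) and -0.11 (-0.63 to 0.41), with 28.6% of genes called, so many other genes did move in stimulated DKO cells.

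The remaining DKO steps were equally small. Day 4 at 2.2 ng/ml against day 0 gave -0.42 for Lilrb4a and -0.25 for Lilr4b on the log2 scale, where 19.9% of genes were called. Against day 2, the low dose gave -0.18 and -0.14 (6.17% of genes called) and the high dose -0.15 and -0.22 (5.18%). The smallest unadjusted limma p over these DKO comparisons was 0.0946, so 0 of the 2 genes passed even an unadjusted 0.05 in any of them. Levels were at background throughout, so a change below the array's floor would not have been seen.

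The genotypes did not differ detectably before stimulation and lay further apart in each later group. At day 0, DKO minus WT was 0.06 for Lilrb4a (95% confidence interval -0.44 to 0.55, limma adjusted p = 0.988) and 0.13 for Lilr4b (-0.39 to 0.65, 0.967) on the log2 scale, and 0.0652% of all genes were called. At day 2 Lilrb4a was 2.28-fold lower in DKO (1.61 to 3.21, limma adjusted p = 0.00545) and Lilr4b 3.42-fold lower (2.38 to 4.90, 0.000112), with 1.68% of genes called lower. With a constant of 16 added to each intensity before the log, the Lilrb4a day 2 difference was -0.68 and lost its call (limma adjusted p = 0.0786; over all alternatives 0.00256 to 0.0786).

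At day 4 with 2.2 ng/ml Lilrb4a was 5.39-fold lower (3.82 to 7.60) and Lilr4b 9.57-fold lower (6.67 to 13.7) in DKO, where 2.06% of genes were called lower. With 10 ng/ml, where DKO read 12.8 ± 1.85 and 9.54 ± 1.83, the difference was 111-fold (78.8 to 157, limma adjusted p = 4.6e-16) for Lilrb4a and 207-fold (144 to 297, 1.37e-16) for Lilr4b. These were the 2nd and 1st largest falls among all genes tested, in a comparison that called 6.09% of genes lower and 6.68% higher. As the DKO level was at background, the true ratio may be larger.

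The difference between genotypes in the response itself was tested with interaction terms. For the dose response at day 4, DKO minus WT was -4.37 ± 0.34 (SE) on the log2 scale for Lilrb4a (limma adjusted p = 8.02e-09) and -4.44 ± 0.36 for Lilr4b (1.32e-08), against 3.38% of genes called lower. For the rise from day 0 to day 4 at 10 ng/ml it was -6.85 ± 0.34 (1.2e-12) and -7.82 ± 0.36 (3.38e-13), against 3.88%. For the rise from day 0 to day 2 it was -1.90 ± 0.36 for Lilr4b (limma adjusted p = 0.00702), against 0.742% of genes called lower. The Lilrb4a value, -1.24 ± 0.34, was not called (limma adjusted p = 0.0757). These terms share arrays with the comparisons above and restate them as differences of responses.

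**Figure D2:**
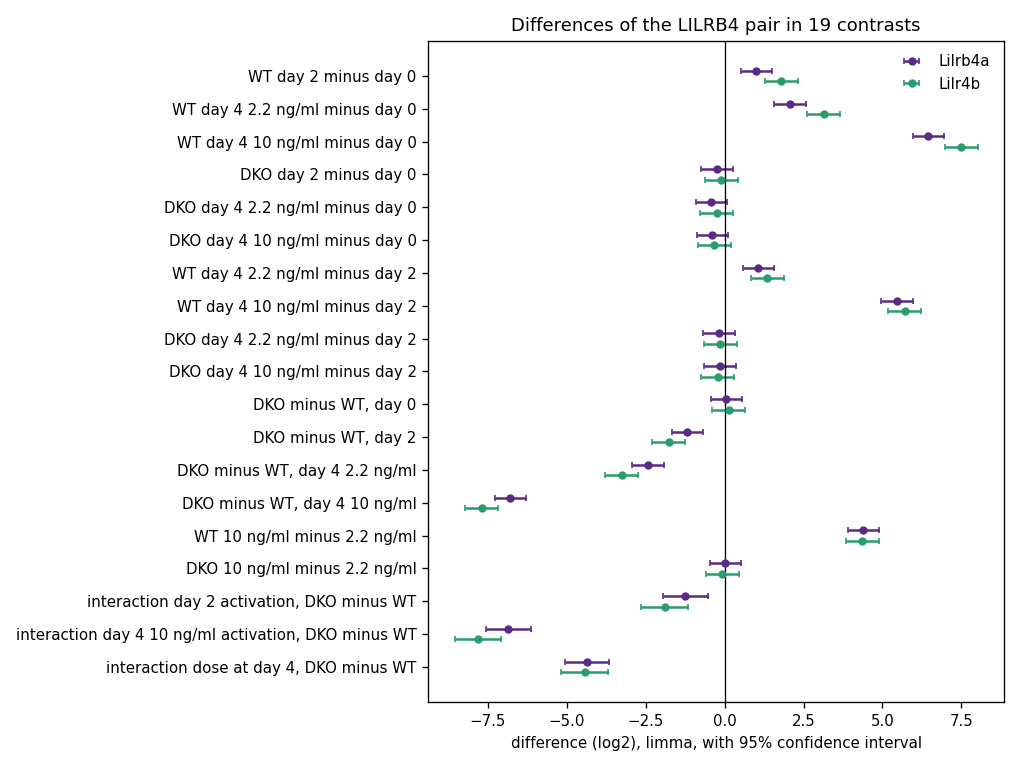
Log2 difference of Lilrb4a (purple) and Lilr4b (green) in each of the 19 contrasts, as limma estimates with 95% confidence intervals. WT steps lie to the right of 0, up to 7.49 for Lilr4b at 10 ng/ml against day 0, the DKO steps span 0, and the genotype and interaction terms after stimulation lie to the left.

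Whether the members moved by different amounts could not be settled by a permutation test of 3 arrays against 3. The log2 difference Lilrb4a minus Lilr4b was compared between groups in 16 comparisons with a two-sided exact permutation test, for which the smallest possible p is 0.1. In the point estimates Lilr4b moved further from its day 0 level than Lilrb4a did, by 0.79 for day 2, 1.07 for the low and 1.04 for the high dose, each at that smallest exact p of 0.1 (0.4 after Benjamini-Hochberg over the 16). In the dose comparison the members differed by 0.03 (exact p = 0.9). Both genes were below the background guide at day 0, and the part of that in these differences was not tested.

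The knocked-out genes and Irf4 were read on the same arrays. Batf in WT read 135 ± 20.9 unstimulated, 722 ± 137 at day 2, then 1509 ± 125 under the low dose and 1595 ± 99.8 under the high dose, and in DKO 31.2, 32.5, 32.2 and 46.5 on average. Batf3 in WT read 30.4, 35.8 and 28.9 and then 146 ± 32.8 at 10 ng/ml, and in DKO 24.2 to 29.8. Irf4 in WT read 32.8 ± 7.90, 1123 ± 25.7, 398 ± 169 and 1304 ± 101, and in DKO 31.9, 707, 350.2 and 896. The low Batf signal in DKO fits the labels of all 12 DKO arrays, while the Batf3 arrays of the genotypes overlapped in every group but 10 ng/ml.

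Group means of Batf in WT stood in the same order as those of the receptors, with steps of other sizes. Over the 24 arrays, which fall into groups of 3, r with Lilrb4a and Lilr4b was 0.90 and 0.88 for Batf3, 0.77 and 0.82 for Batf, and 0.40 and 0.44 for Irf4, given as a description. Over the 12 WT arrays alone it was 0.89 and 0.86 for Batf3, 0.71 and 0.79 for Batf, and 0.64 and 0.70 for Irf4. On the 12 DKO arrays, with both receptors at background, it was 0.10 and 0.11, -0.21 and -0.03, and -0.66 and -0.35 in the same order. Between 2.2 and 10 ng/ml the log2 difference of Batf was 0.08 ± 0.16 (SE) and was not called, while the receptors rose 20.9-fold and 20.5-fold. Between day 2 and day 4 at 2.2 ng/ml mean Irf4 went from 1123 to 398 while Lilrb4a rose from 32.9 to 73.01. Batf3, like the receptors, was highest in WT cells at 10 ng/ml, where its lowest array read 110 against a highest of 44.3 on the other WT arrays. In DKO cells at 10 ng/ml Irf4 stood at 896 ± 68.4 with both receptors at background. Whether the level of any of these factors sets that of the receptors was not tested. The joint knockout cannot tell Batf from Batf3.

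**Figure D3:**
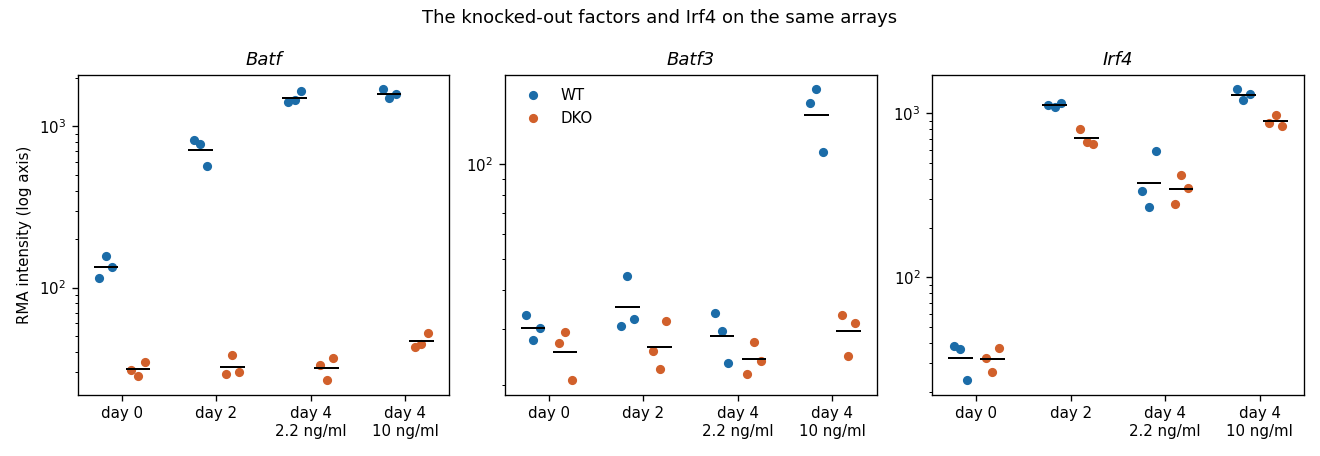
RMA intensity (log axes, a different range in each panel) of Batf, Batf3 and Irf4 on each of the 24 arrays; points are arrays of WT (blue) or DKO (orange) cells and bars are geometric means of 3 arrays. WT Batf is similar at 2.2 and 10 ng/ml (1509 and 1595), WT Batf3 leaves the background range at 10 ng/ml (146), and Irf4 rises in both genotypes.

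The genes whose log2 profile lay closest to the pair were ranked by Pearson r over the 24 arrays among 4719 genes. These had a highest group mean above the median over genes and group means spanning at least 1 on the log2 scale. The pair met this through its stimulated WT groups, so the pool favours genes that, like the pair, are high in some group. Each member's nearest gene was the other, with r = 0.989 over 24 arrays, 0.960 over the 21 arrays without WT 10 ng/ml and 0.626 over the 12 DKO arrays, where both were at background. Next for both came Ctla2a, which encodes an inhibitor of cysteine cathepsins, at 0.977 with Lilrb4a and 0.987 with Lilr4b. Its geometric means in WT were 8.98, 23.8, 64.8 and 589 through the 4 groups, and 6.79 in DKO at 10 ng/ml. Without the WT 10 ng/ml arrays the r of Ctla2a was 0.960 (Lilrb4a) and 0.959 (Lilr4b), and over the 12 DKO arrays 0.667 and 0.499. Ctla2a was picked by its r over arrays that include these, so the values describe the likeness and are no separate check of it.

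The other near profiles held to different degrees without the WT 10 ng/ml group. For Lilrb4a they were Serpinf1, Fosl2, Il21, Ctla2b, Nabp1, Paxbp1, Ifitm3, Gpnmb and Tcaf2, with r from 0.953 to 0.970. For Lilr4b they were Nabp1, Serpinf1, Inhba, Paxbp1, Il21, Rap1gds1, Fosl2, Dock5 and Spef2, with r from 0.944 to 0.957. Il21, a cytokine of helper T cells, had geometric means of 6.42, 6.73, 25.2 and 372 in WT and 6.37 in DKO at 10 ng/ml. Fosl2, an AP-1 subunit, read 56.4, 79.9, 79.8 and 538 in WT and 61.1 in DKO at 10 ng/ml. Without WT 10 ng/ml the r of Il21 with Lilrb4a was 0.727 and that of Fosl2 0.753, while with Lilr4b that of Dock5 was 0.944 and that of Rap1gds1 0.910. All 24 arrays enter each r, and genes high in 1 group of 3 arrays correlate through that group.

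None of the flanking genes rose with dose by as much as the pair. In the RefSeq gene order of GRCm38.p6 the pair lies between Ascc3 and Sim1 on one side and Fam162b and Gprc6a on the other; these 4 were looked at after the pair's values were known. At 10 ng/ml in WT, Sim1 read 16.3 ± 1.19, Fam162b 14.6 ± 3.90 and Gprc6a 10.6 ± 2.13, all below the background guide. Their dose differences in WT were -0.03, 0.02 and -0.13 on the log2 scale, with 0 of 3 called (limma adjusted p from 0.684 to 0.976). Of all genes 7.64% were called higher and 7.52% lower for dose. Ascc3, a helicase subunit, lay above the guide and was called in the pair's directions. It rose with dose by 0.42 ± 0.12 (limma adjusted p = 0.0177) and was lower in DKO at 10 ng/ml by a log2 difference of -0.37 (0.045). Against day 0, however, Ascc3 was lower in WT at 10 ng/ml (-0.49 ± 0.12, limma adjusted p = 0.00206), where the pair rose.

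Most measured relatives of the pair read below the background guide, as many genes of any kind do. Of 16 listed genes of the LILR and paired immunoglobulin-like receptor families, 7 were measured, and 6 of the 7 lay below the background guide in WT at 10 ng/ml, where the inhibitory receptor Pirb read 13.7 ± 0.96 and the collagen receptor Lair1 27.7 ± 5.90. In WT at 10 ng/ml against day 0, 0 of the 7 rose and 1 fell (Lilra5, from 22.6 to 15.0), near the 18.4% and 18% of all genes, and with dim genes left out 0 fell. In the dose comparison in WT and in the genotype comparison at 10 ng/ml limma called 0 of 7, and 0 passed an unadjusted 0.05, beside 7.64% of all genes higher and 7.52% lower for dose and 6.68% and 6.09% for genotype. Their median log2 differences were 0.01 (dose) and 0.01 (genotype), beside -0.04 and 0.03 over all genes.

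Other inhibitory receptors of T cells moved in both directions. With dose in WT, 5 of 17 measured genes rose and 2 fell, beside 7.64% and 7.52% of all genes, with a median of 0.07 beside -0.04 over all genes. With dim genes left out 1 fell. Tigit, which competes with an activating receptor for ligand, rose from 165 ± 60.8 to 825 ± 118 (5.19-fold), and Ctla4, which competes with CD28, rose from 1611 ± 97.7 to 2895 ± 569 (1.78-fold). Btla, a receptor of the CD28 family type, rose from 18.4 ± 2.63 to 53.5 ± 11.3 (2.88-fold). Cd96, which shares ligands with Tigit, fell from 226 ± 81.3 to 30.3 ± 8.58 (7.27-fold). The receptor pair's dose folds, 20.9 and 20.5, were above each of these. Without WT replicate 3 at 2.2 ng/ml, 3 of the 17 rose and 1 fell.

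At 10 ng/ml 4 of these 17 receptors were lower in DKO than in WT and 3 were higher, beside 6.09% and 6.68% of all genes. With dim genes left out 1 was higher. Ctla4 was 12.8-fold lower (223 ± 15.5 in DKO), Tigit 6.21-fold lower (136 ± 41.9) and Cd200r1, a receptor for CD200, 3.58-fold lower (12.9 ± 2.68 against 46.8 ± 13.6). Cd96 was 6.81-fold higher in DKO (204 ± 35.9). Lag3, an MHC class II receptor, read 305.04 ± 14.4 against 439 ± 25.8 and was not called (limma adjusted p = 0.0572). Against day 0 in WT at 10 ng/ml 4 of the 17 rose, among them Ctla4 and Lag3, and 6 fell, beside 18.4% and 18% of all genes.

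**Figure D4:**
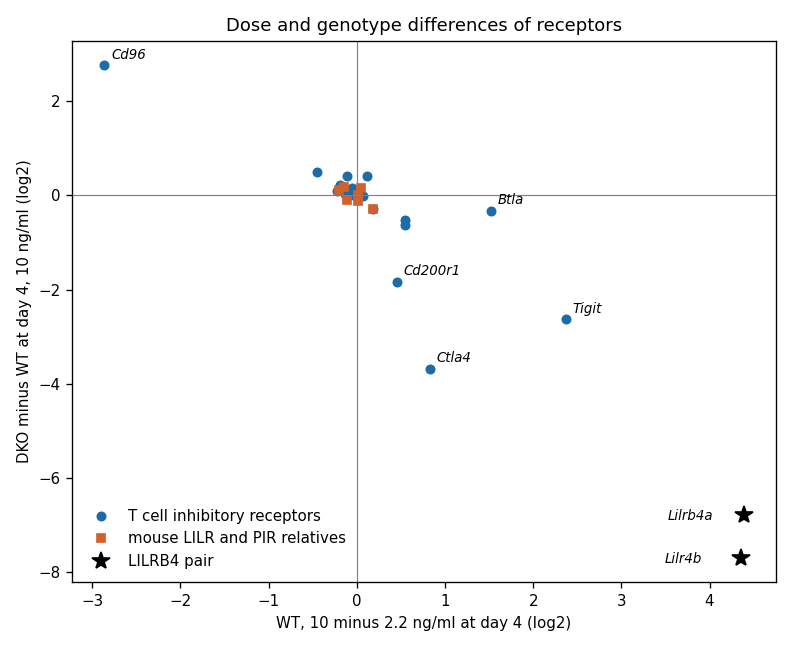
Log2 difference of each receptor gene for dose in WT (horizontal axis, 10 minus 2.2 ng/ml) and for genotype at 10 ng/ml (vertical axis, DKO minus WT); points are genes, and genes beyond 1 on either axis are named. The axes share the WT 10 ng/ml arrays, so part of any slope is built in; Lilrb4a (4.39, -6.80) and Lilr4b (4.36, -7.69) lie apart from the inhibitory receptors and from their own relatives near 0.

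Genes for the signalling partners of an ITIM receptor mostly read above the background guide. As the guide is the median over genes, many genes of any kind lie above it. Of 11 measured effectors and proximal kinases, 9 lay above the background guide in WT at 10 ng/ml. With dose 1 rose (2 with cyclic loess) and 3 fell, beside 7.64% and 7.52% of all genes. Sh2d1a, the adaptor SAP, rose 3.45-fold to 615 ± 68.3, while the Src-family kinase Fyn fell 2.25-fold to 129 ± 2.22, the inhibitory kinase Csk 1.86-fold to 204 ± 5.37 and the adaptor Dok2 1.51-fold to 135 ± 15.2. Ptpn6, which encodes SHP-1, read 376 ± 30.9 and 342 ± 40.2 at the low and high dose and was not called (limma adjusted p = 0.527). Inpp5d, the lipid phosphatase SHIP-1, read 201 ± 43.0 and 197 ± 21.5 (0.968). Without WT replicate 3 at 2.2 ng/ml, 2 of the 11 rose.

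At 10 ng/ml 4 of these 11 were higher in DKO and 1 was lower, beside 6.68% and 6.09% of all genes. Fyn was 2.22-fold higher, Ptpn6 1.53-fold (520 ± 32.7), Ptpn11 (SHP-2) 1.38-fold and Csk 1.31-fold, and Sh2d1a was 2.49-fold lower. Among 4 adaptors that carry activating motifs, Fcer1g read 12.6 ± 0.84 and Tyrobp 30.1 ± 1.74 in WT at 10 ng/ml, below the guide. Hcst, the adaptor DAP10, was the single dose call among them, beside 7.52% of all genes called lower, and fell 1.84-fold with dose to 433 ± 68.9; without WT replicate 3 at 2.2 ng/ml 2 of the 4 fell.

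Of 5 genes for reported ligands and partners, 1 rose and 2 fell with dose, beside 7.64% and 7.52% of all genes, and the integrin chains moved in opposite directions. Itgav, whose αv chain pairs with β3 in the integrin that binds mouse gp49B, rose 2.27-fold from 132 ± 16.6 to 302 ± 49.0 and was 2.77-fold lower in DKO at 10 ng/ml (109 ± 15.8). Itgb3, the β3 chain, fell 2.26-fold from 604 ± 120 to 264 ± 12.6. Alcam, a reported ligand of human LILRB4, fell 1.49-fold to 58.4 ± 6.45. Apoe, another ligand reported for the human receptor, and Fn1, fibronectin, read 81.8 ± 14.0 and 22.1 ± 4.08 at 10 ng/ml and were not called for dose. Without WT replicate 3 at 2.2 ng/ml 1 of the 5 fell in place of 2.

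Of 15 genes of a co-inhibitory and IL-10 module, 8 rose and 2 fell in WT at 10 ng/ml against day 0, beside 18.4% and 18% of all genes, with a median log2 difference of 1.30 beside -0.10 over all genes. With dose 4 rose and 2 fell, beside 7.64% and 7.52%. With dim genes left out 1 fell in each of these comparisons. Il10, an anti-inflammatory cytokine, read 7.20 ± 0.40 at day 0, 428 ± 146 at the low dose and 590 ± 267 at the high dose, so unlike the receptors it was already high at the low dose, and the dose difference was not called (limma adjusted p = 0.326). The costimulatory receptor Tnfrsf9 rose 4.58-fold with dose, Tigit as above, and Prdm1, the repressor Blimp-1, 1.79-fold to 131 ± 10.9. In DKO at 10 ng/ml 6 of the 15 were lower and 1 was higher (0 with dim genes left out), beside 6.09% and 6.68% of all genes, and Il10 read 8.33 ± 0.80, 66.7-fold lower. Without WT replicate 3 at 2.2 ng/ml 1 of the 15 fell with dose. Lag3, Tigit and Havcr2 also stand in the inhibitory receptor list.

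Of 11 listed Batf and Irf4 partners and regulators, 6 rose with dose in WT and 0 fell, beside 7.64% and 7.52% of all genes, with a median log2 difference of 0.77 beside -0.04 over all genes. Irf4 rose 3.46-fold, Jun, an AP-1 subunit, 2.78-fold to 177 ± 27.0, and Irf8, a relative of Irf4, 2.10-fold to 129 ± 34.9. At 10 ng/ml 6 of the 11 were lower in DKO, of which Batf and Batf3 are the knocked-out genes themselves, and 1 was higher (Jund, 1.41-fold), beside 6.09% and 6.68% of all genes. Prdm1 was 5.26-fold and Gata3, the master regulator of TH2 cells, 1.82-fold lower in DKO. Irf4 was 1.46-fold lower and not called (limma adjusted p = 0.112).

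Because the receptors are known from mast cells and macrophages, markers of other cells were read on the same arrays. All 12 mast cell and basophil markers lay below the background guide in WT at 10 ng/ml, including Cpa3 at 7.09, Kit at 12.9, Fcer1a at 6.13 and Ms4a2 at 7.67, and their sum was 148 to 161 there against 155 to 174 at 2.2 ng/ml. Of 11 macrophage and monocyte markers 9 lay below the guide, including Csf1r at 17.9, Adgre1 at 9.16 and Lyz2 at 7.50, and 2 lay above it, Fcgr3 and Cd68. Cd68, a lysosomal protein, read 56.1 ± 5.39 at 2.2 ng/ml and 81.6 ± 19.6 at 10 ng/ml and was not called (limma adjusted p = 0.0838). Their sum was 251 to 315 in WT at 10 ng/ml, above the 192 to 220 at 2.2 ng/ml. One of the 11, Fcgr3, an Fc receptor chain, rose with dose from 32.0 ± 7.32 to 83.6 ± 23.7 (2.58-fold), beside 7.64% of all genes called higher. Fcgr3 was also 2.70-fold lower in DKO at 10 ng/ml, the only macrophage marker called between genotypes there, beside 6.09% of all genes called lower. The part of Fcgr3-expressing cells in the receptor values was not tested.

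Markers of the remaining cell types were mostly below the guide in WT at 10 ng/ml, but not in all groups. In WT at 10 ng/ml all 8 neutrophil markers lay below the guide, and 1 of them, Ly6g, rose from 7.41 to 16.4 with an SD of 12.1. Of 9 dendritic cell markers 8 lay below it and 2 fell with dose, and all 5 B cell markers and all 5 NK cell markers lay below it, with 0 and 1 (Eomes, lower) called for dose. Eomes, a factor also made by activated T cells, read 200.2 ± 28.0 in WT and 599 ± 82.5 in DKO at 2.2 ng/ml. Of the CD8 T cell markers Cd8b1 read 43.2 ± 9.82 and Cd8a 18.9 ± 5.76 in WT at 10 ng/ml, and 0 of 2 were called for dose or passed an unadjusted 0.05. Beside these dose counts, 7.64% of all genes were called higher and 7.52% lower. Between genotypes at 10 ng/ml Ly6g was lower in DKO, and Hdc (60.7 ± 9.74), Cd74 (185 ± 8.07), Cd79b (88.8 ± 27.9) and Eomes (46.8 ± 13.3) were higher, 1 marker each of the mast cell, dendritic cell, B cell and NK cell lists. In that comparison 6.09% of all genes were called lower and 6.68% higher. The part of any of these markers' cells in the receptor values was not tested.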

How the data were processed

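Expression was measured on 24 one-colour Affymetrix arrays, 3 in each of 8 groups mapped from the labels. The deposited values are intensities on a linear scale, which the authors made with RMA per the submitters' processing notes; the software version is not given in the sources used here. RMA quantile-normalizes, which hides any change common to most genes, and background shrinks folds of dim genes. Batches and scan dates could not be examined, since the labels give neither.

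Of 35556 probe sets, 21789 carried 1 gene symbol in the platform annotation, 1621 several and 12146 no listed gene; the latter kinds were left out. 21698 matched RefSeq (GRCm38.p6) by Entrez number, which changed 0 symbols. The brightest probe set stood for each of 999 genes with several, leaving 19938. The arrays' genome build is not given in the sources used here, and gene coordinates are left out; the promoter sequence and gene order are RefSeq's. Of the pair, Lilr4b was matched in the promoter table by symbol.

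Log2 values were fitted with limma 3.58.1 in R 4.3.3: 8 group means, 16 residual and 7.49 prior degrees of freedom, 19 contrasts, Benjamini-Hochberg over all genes in each. Fold changes are ratios of geometric means. The difference between the members used exact permutation tests. The pair, the gene lists, the markers and the tests were chosen with earlier results of these data known. Named genes were the pair, Batf, Batf3 and Irf4, up to 4 genes with the smallest p from each list and comparison, and for each member the 10 nearest genes by Pearson r; gene models, small RNAs, receptor segments and sex-linked genes were skipped. Genes of a list named beyond these (Ctla4, Ptpn6, Inpp5d and Il10 for dose, Ptpn11 and Jund for genotype, the low adaptors, relatives, ligands and markers, and Lag3) were added after their values were seen.

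Alternatives were a filter on dim genes, a constant of 16 before the log, cyclic loess or quantile normalization, probe sets averaged per gene or all counted, the compared groups alone, a replicate block, array weights, robust eBayes with a trend, and leaving out single arrays; list counts without 1 WT array were added after the data were seen. In simulated data for the WT dose comparison (19938 genes), the fit recovered 15 of 50 genes given a log2 change of 0.5, 45 of 50 given 1, and 50 of 50 given 2 or 4, and 7 of its 167 calls fell on unchanged genes.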

Additional observations from a re-analysis of the deposited data

Results flagged for a closer look

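The following 5 responses differed between genotypes by an interaction term in limma, adjusted over all genes. They repeat terms given above, for a pair chosen with these data in view, and are not independent evidence. The rise from day 0 to day 2 was smaller in DKO by -1.90 on the log2 scale for Lilr4b. The rise from day 0 to day 4 at 10 ng/ml differed by -6.85 for Lilrb4a and -7.82 for Lilr4b. The dose response at day 4 differed by -4.37 for Lilrb4a and -4.44 for Lilr4b. In each case the 3 WT arrays moved up and the DKO level stayed at background. Outlying arrays were not tested for, since each group held 3.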

How the results depend on the processing

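Of 644 alternative values for the pair's 38 results, 641 kept their direction where called and their side of the threshold; 11 of the uncalled values changed sign. The exceptions were all for Lilrb4a. The day 2 to 2.2 ng/ml step in WT was 1.07 and lost its call when the compared groups were fitted alone, the day 2 interaction was -1.24 and gained one there (limma adjusted p = 0.0192; over alternatives 0.0192 to 0.249), and the day 2 genotype difference was -0.68 and lost its call with 16 added before the log. The cause was not tested. The dim-gene filter, the probe-set settings, the groups alone and the robust fit with a trend could not move the pair's log2 estimates, only their adjusted p. A block for the replicate number could not either, as each number occurs once in every group. With that block no call of the pair changed (dose in WT 4.39 for Lilrb4a and 4.36 for Lilr4b). The labels do not say whether the numbers pair the samples. Residuals of same-numbered arrays correlated at medians of 0.001, -0.014 and 0.023 over 28 pairs each, with a highest r of 0.264 for number 3. Of 24 arrays, 11 correlated best with their own number. Residuals from groups of 3 cannot settle whether samples were paired.

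List counts moved with fewer genes tested. With dim genes left out, inhibitory receptors higher in DKO went from 3 to 1, those lower with dose from 2 to 1, the IL-10 module higher in DKO from 1 to 0, lower with dose from 2 to 1 and lower against day 0 from 2 to 1, and relatives lower against day 0 from 1 to 0. With cyclic loess 2 effectors in place of 1 rose with dose. Without WT 2.2 ng/ml replicate 3, an alternative chosen after seeing the data, inhibitory receptors called for dose went to 3 higher and 1 lower from 5 and 2, effectors higher to 2, adaptors lower from 1 to 2, and the ligand list and the IL-10 module lower to 1 each.

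Over all genes, the day 0 genotype count of 13 fell to 4 with cyclic loess, 2 with the groups alone and 6 with array weights, and the 2.2 ng/ml genotype count of 739 to 462 with the groups alone. Leaving out single arrays moved 21 of 132 such counts, in 8 contrasts, to between 0.308 and 0.662 of their size. Cyclic loess and quantile normalization raised the median gene against day 0 by up to 0.14 on the log2 scale. Signal over background limits all values in DKO and at day 0.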
